A study of Capra hircus with 9 samples.

Results

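The genes described here encode the mitochondrial respiratory chain of the goat: the proteins read from mitochondrial DNA (mtDNA) and the nuclear genes for subunits of complexes I to V. They were picked by symbol. Every mtDNA-encoded protein was taken, together with each nuclear gene whose symbol began NDUFA, NDUFB, NDUFC, NDUFS or NDUFV, SDH, UQCR, COX4 to COX8 or ATP5. This gave 108 genes of the 21683 in the table, of which 13 lay in mtDNA and 95 in the nucleus. Of the nuclear genes, 64 carried the symbol itself and 31 carried only a locus identifier and were named by their product description, which held for every nuclear gene of complex III. Of the 95, 89 encode subunits or their close paralogues, and the other 6 (SDHAF1 to SDHAF4, ATP5S and ATP5SL) are assembly or associated proteins caught by the same letters.

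RNA from submandibular glands of female Lubo goats was sequenced at 3 ages: 1-month kids, 12-month adolescents and 24-month adults, with 3 goats and 3 libraries per age. All were healthy, had shared the same housing and feeding, and were fasted and anaesthetised with xylazine before slaughter. Libraries held between 11546800 and 24901100 expected counts, to 6 digits. Levels are given as CPM, counts relative to the size of the library, after scaling by trimmed mean of M-values (TMM), which sets libraries against the bulk of their genes, and gene length is not corrected for, so levels are compared between libraries and not between genes.

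The respiratory chain passes electrons from NADH and succinate to oxygen and uses the energy to pump protons, and ATP synthase, complex V, turns the proton gradient into ATP. Complex I takes electrons from NADH, complex II from succinate, complex III hands them to cytochrome c and complex IV gives them to oxygen. Complexes I, III, IV and V are mosaics of mtDNA and nuclear products, whereas complex II is wholly nuclear. Salivary gland ducts, above all the striated ducts, are known for their many mitochondria, which serve ion transport.

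The libraries differed in the cells they held, and this touches every comparison with the kids. The library labelled 1-month replicate 2 went against its tissue label: the 8 salivary acinar markers measured summed to 116 CPM there, against 39020 and 24962 CPM in the other 1-month libraries and 114039 CPM or more in the older ones, whereas its 16 thymocyte markers summed to 17697 CPM. The other 1-month libraries held 4643 and 2463 CPM of thymocyte markers against 18.5 to 42.5 CPM at the older ages, and thymic epithelium markers ran from 78.8 to 721 CPM against 6.61 to 12.4 CPM. All 16 thymocyte markers and all 14 cell cycle genes were lower at both older ages, with 4 of 5 tested thymic epithelium markers. Separately, 24-month replicate 3 had whole numbers in 25.1% of its non-zero values, against at most 2.22% in any other library. In bulk tissue, fewer cells of a type and less RNA per cell cannot be told apart.

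Summed over the 13 mtDNA genes, the 1-month libraries held 23464, 15840 and 16129 CPM, the 12-month libraries 36480, 55339 and 41661 CPM, and the 24-month libraries 40476, 38268 and 25155 CPM. Every older library lay above every 1-month library, although 24-month replicate 3 came within a small margin of 1-month replicate 1. Means were 18478 ± 4321 at 1 month, 44493 ± 9743 at 12 months and 34633 ± 8282 at 24 months (SD, n = 3 each). The 89 nuclear subunit genes summed to 3404, 4183 and 3058 CPM at 1 month, 5147, 5467 and 6107 CPM at 12 months, and 5328, 7471 and 6860 CPM at 24 months. Here too no older library reached down to the kids, and among the kids the thymocyte-rich replicate 2 was the highest, not the lowest.

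The scale mattered. As CPM of the plain library total, with no TMM factor, the mtDNA sum was 23653 ± 7326 CPM at 1 month, 41618 ± 6967 CPM at 12 months and 29015 ± 6017 CPM at 24 months, and the 1-month and 24-month libraries overlapped. On that scale the nuclear sums were 4443 ± 221, 5274 ± 860 and 5533 ± 1015 CPM (SD, n = 3 each), and 24-month replicate 1, at 4365 CPM, fell among the kids. The ratio of the sums at 12 months to 1 month was thus 2.41 for mtDNA and 1.57 for nuclear genes with TMM, and 1.76 and 1.19 with plain totals. At 24 months to 1 month it was 1.87 and 1.85 with TMM, and 1.23 and 1.25 with plain totals.

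The ratio of mtDNA to nuclear sum within a library does not depend on the scale. It was 6.89, 3.79 and 5.27 at 1 month, 7.09, 10.1 and 6.82 at 12 months, and 7.60, 5.12 and 3.67 at 24 months. The ages overlapped between 1 and 12 months and between 1 and 24 months, and the lowest values were those of 24-month replicate 3 and 1-month replicate 2.

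**Figure D1:**
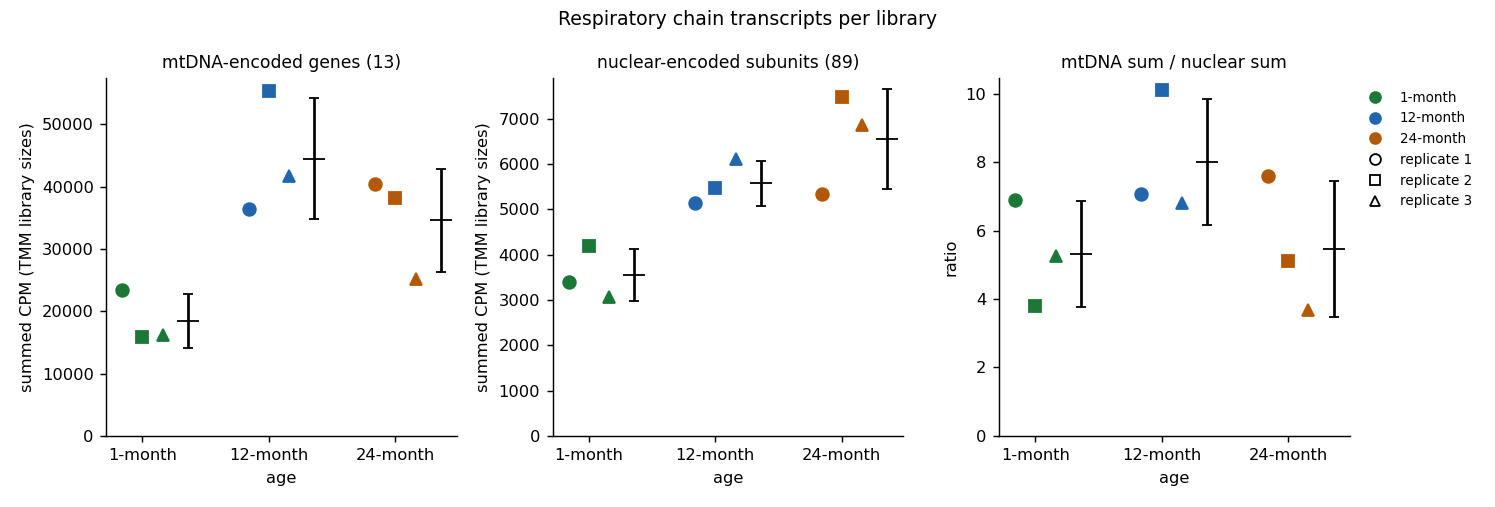
Summed CPM of the 13 mtDNA genes (left), of the 89 nuclear subunit genes (middle) and their ratio (right) in each of the 9 libraries, coloured by age and shaped by replicate, with the mean and SD of each age in black. Both sums are higher in all older libraries than in all 1-month libraries, whereas the ratio overlaps between 1-month and each older age.

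COX1, the catalytic core of complex IV, gave the most counts of any respiratory chain gene. It stood at 9562, 6651 and 6734 CPM at 1 month, at 17486, 26218 and 21363 CPM at 12 months, and at 19331, 20197 and 11302 CPM at 24 months. All older libraries exceeded all 1-month libraries, but the fitted differences did not pass the test (log2 fold change 1.56 ± 0.56, SE, adjusted p = 0.0922 at 12 months; 1.26 ± 0.67, adjusted p = 0.219 at 24 months). All tests named in this way are edgeR quasi-likelihood tests with Benjamini-Hochberg adjustment over every gene tested, and a gene is called when its adjusted p is under 0.05.

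ND6, the only mtDNA protein gene on the other strand from the rest, was the only one of the 13 called, and only at 12 months. Its levels were 62.4, 16.6 and 62.6 CPM at 1 month and 182, 135 and 180 CPM at 12 months, which did not overlap, then 172, 77.8 and 43.1 CPM at 24 months, which did overlap with the kids. The fitted log2 fold change was 1.89 ± 0.50 (adjusted p = 0.0440) at 12 months and 1.17 ± 0.64 (adjusted p = 0.231) at 24 months. The library kit marked strand, but whether the counting used it is not stated, so reads of ND6 and of ND5, whose end it overlaps, may not be fully separated, and the overlapping pairs ATP8 with ATP6 and ND4L with ND4 share the same limit.

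Across the 13 mtDNA genes, the fitted log2 fold change at 12 months lay between 0.41 for ND2 and 1.89 for ND6, with a median of 0.88 against -0.02 for all genes tested, and 9 of the 13 had groups that did not overlap. The background of such non-overlapping, higher genes was 26.6% of all genes tested. At 24 months against 1 month the values ran from -0.03 for ND2 to 1.26 for COX1, with a median of 0.60 against -0.01, and 2 of the 13 did not overlap, where the background was 20.2%. The distance of these medians from the median of all genes, 0.90 and 0.61, moved to 0.88 and 0.62 with plain totals, but the count above 0 went from 13 to 12 of 13 at 12 months and from 12 to 5 of 13 at 24 months. Plain totals shifted the median of all genes itself by -0.49 and -0.70.

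Without the thymocyte-rich 1-month replicate 2, 7 of the 13 mtDNA genes were called higher at 12 months, where 21.1% of all genes were, and 0 at 24 months by edgeR, where 13.8% of all genes were. They were ND1, ND5, ND6, CYTB, COX1, COX2 and COX3, with ND6 at 1.41 ± 0.17 (adjusted p = 0.00238) and COX1 at 1.42 ± 0.31 (adjusted p = 0.0138). None of the 13 reached an unadjusted p under 0.05 at 24 months with all libraries, and DESeq2 called 1.

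The make-up of the mtDNA counts moved as well. COX1 took 40.8, 42.0 and 41.8% of all mtDNA counts at 1 month, 47.9, 47.4 and 51.3% at 12 months, and 47.8, 52.8 and 44.9% at 24 months, so that no older library fell to the level of the kids. ATP6, a subunit of the proton channel of ATP synthase, took 2.39, 2.60 and 2.67% at 1 month against 1.41 to 1.77% at 12 months and 1.27 to 1.83% at 24 months. ND2, a membrane subunit of complex I, took 1.43 to 1.71% at 1 month against 0.577 to 0.948% and 0.483 to 0.912%. Shares add to a fixed total, so a larger COX1 share lowers others.

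COX2, which receives electrons from cytochrome c, behaved differently. It took 12.4 and 12.9% of mtDNA counts in 1-month replicates 1 and 3 but 3.70% in replicate 2, and 14.4% in 24-month replicate 1 but 4.60 and 8.64% in replicates 2 and 3, while the 12-month libraries held 11.1 to 12.6%. In CPM, COX2 was at 2905, 586 and 2078 at 1 month, 4596, 6273 and 4618 at 12 months, and 5814, 1759 and 2174 at 24 months. ND1 and ND5 went the other way in 1-month replicate 2, with 9.92% and 12.2% of mtDNA counts against at most 6.14% and 6.85% in any other library.

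**Figure D2:**
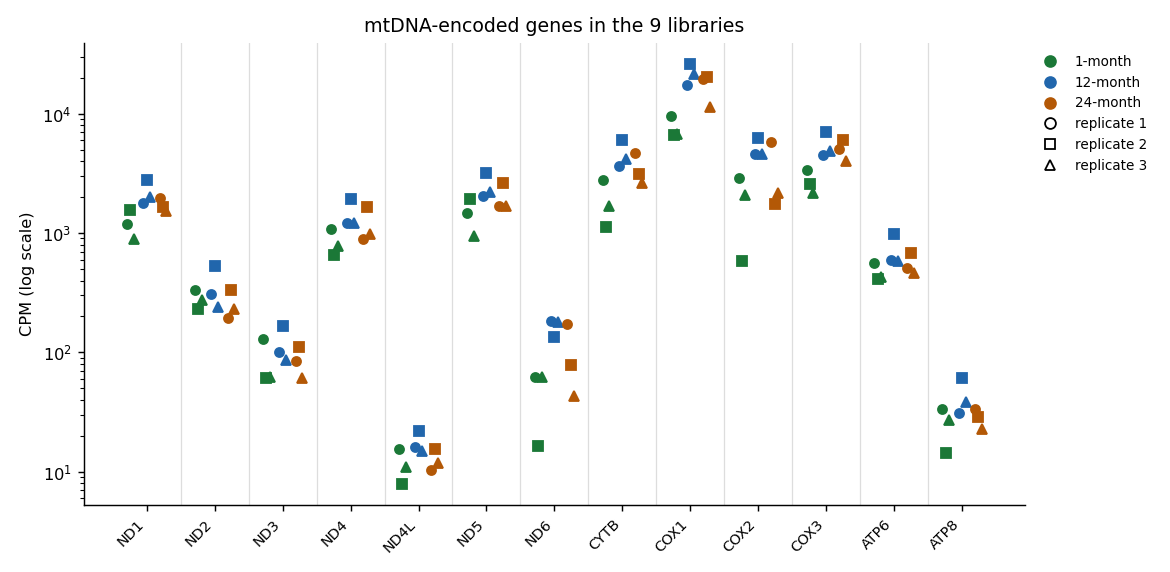
CPM of the 13 mtDNA-encoded genes on a log axis in each of the 9 libraries, coloured by age and shaped by replicate. COX1 is higher in every older library than in every 1-month library, while COX2, CYTB and ND6 are lowest in 1-month replicate 2.

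Among the nuclear genes, 101 of the 108 respiratory chain genes passed the filter on low counts in the comparisons with the kids, of which 82 were nuclear subunits. At 12 months against 1 month, 11 of the 101 were called higher and 0 lower, where the background over all 14897 genes tested was 6.52% higher and 11.8% lower. Besides ND6 these were 9 nuclear subunits, from complexes I, III, IV and V, and ATP5S. At 24 months against 1 month, 5 of 101 were called higher, all nuclear subunits, and 0 lower, against a background of 7.08% higher and 10.6% lower over 14966 genes. The 2 comparisons share the 1-month libraries. The count at 24 months is near the background. The study's further limit, an absolute log2 fold change over 2, left none of the 108 genes in either comparison.

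No respiratory chain gene was called lower by edgeR at either age. At an unadjusted p under 0.05 there were 39 higher and 1 lower of 101 at 12 months, against 2607 and 3025 of 14897 genes tested. At 24 months these were 28 higher and 0 lower of 101, against 2418 and 2723 of 14966 genes tested. DESeq2 called 27 higher and 1 lower at 12 months (background 10.1% and 15.6%), and 8 higher and 0 lower at 24 months (8.94% and 13.1%). The median log2 fold change of the 82 nuclear subunits was 0.64 at 12 months and 0.81 at 24 months. With plain library totals these medians were 0.18 and 0.14, with 61 rather than 78 and 55 rather than 80 of the 82 above 0. On that scale 0 respiratory chain genes were called in either direction at either age by edgeR. Of all genes, 1.43% were then called higher and 22.1% lower at 12 months, and 1.75% and 22.0% at 24 months. At an unadjusted p under 0.05, 3 respiratory chain genes were then higher and 2 lower at 12 months, and 3 higher and 1 lower at 24 months. In either direction, 5842 of 14897 and 5968 of 14966 genes passed that limit in those fits. The distance from the median of all genes was 0.66 and 0.82 with TMM and 0.69 and 0.85 with plain totals.

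The counts changed with the libraries used. Leaving out 1-month replicate 2, 73 of 101 respiratory chain genes were called higher at 12 months and 0 lower (background 21.1% and 22.1%), and 32 higher and 0 lower at 24 months (background 13.8% and 14.2%). Leaving out instead 1-month replicate 1 gave 2 at 12 months and 0 at 24 months, where 2.90% and 3.50% of all genes were called higher, and leaving out 1-month replicate 3 gave 0 in both, where 1.58% and 2.12% were. Without any single 12-month library the count at 12 months was 0, with at most 0.0846% of all genes called higher. At 24 months it was 4 without 24-month replicate 1 (background 4.39%), and 0 without replicate 2 (0.652%) or replicate 3 (0.287%). With both 1-month replicate 2 and 24-month replicate 3 left out, 9 of 101 were called higher at 24 months, near the 7.83% of all genes in that fit.

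Groups that did not overlap were commoner. At 12 months 43 of the 82 nuclear subunits had every library above every 1-month library, against 26.6% of all genes, and 1 had every library below, against 26.9%. At 24 months these were 27 and 0 of 82, against 20.2% and 23.5% of all genes.

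**Figure D3:**
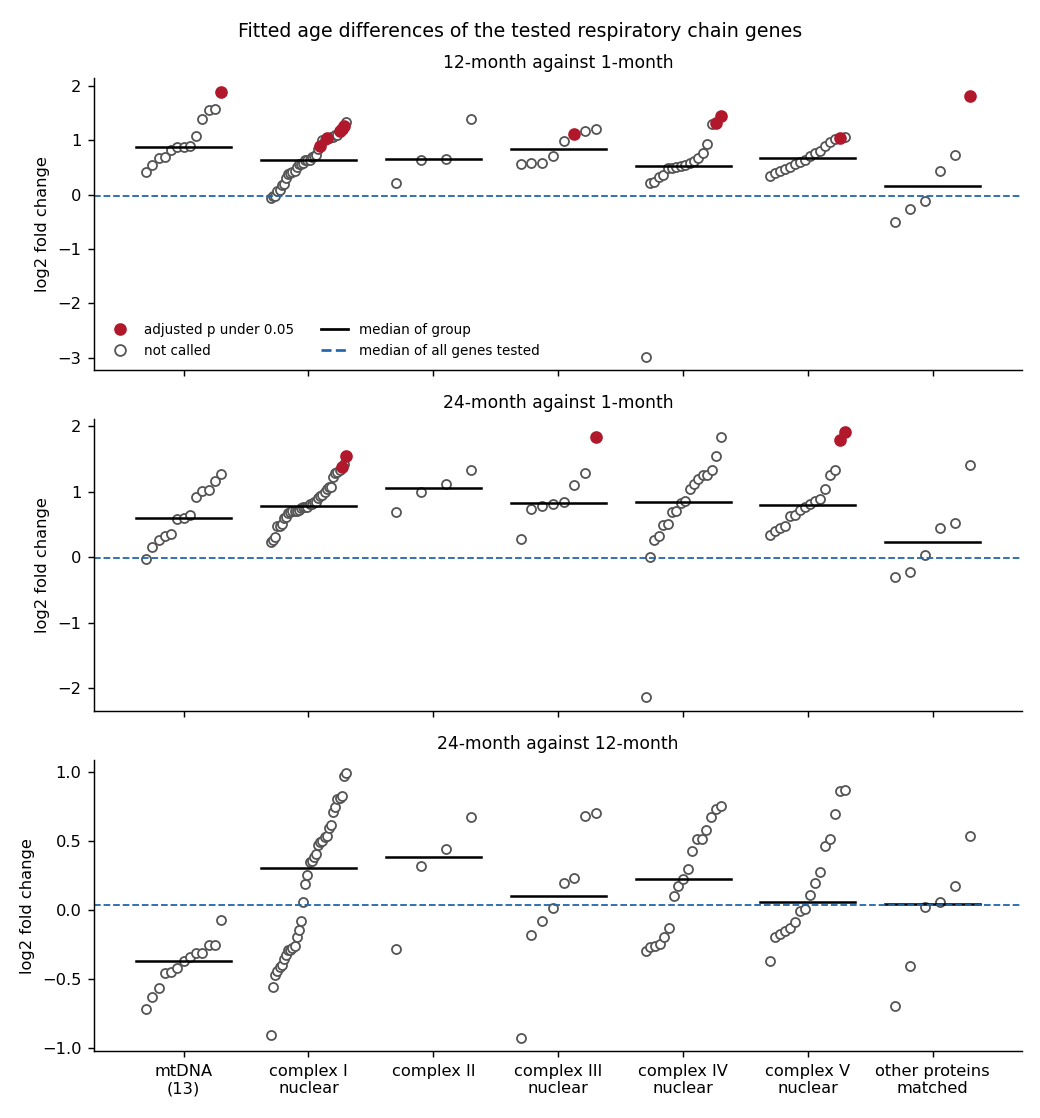
Fitted log2 fold changes of the tested respiratory chain genes for the 3 pairs of ages, in columns for mtDNA, the nuclear genes of each complex and the 6 other proteins, sorted within a column; red points have an adjusted p under 0.05, black bars are column medians and the dashed line is the median of all genes tested. In both comparisons with 1-month goats the columns of subunits lie above the dashed line, except COX6B2 in complex IV and a few values near 0, and no point is red between 24 and 12 months.

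In complex I, the largest of the complexes, 5 of 36 nuclear genes were called higher at 12 months, against 6.52% of all genes, and 2 at 24 months, which is below the background of 7.08%. NDUFC2, an accessory subunit of the membrane arm, was called at both ages. It was at 24.0, 20.6 and 21.3 CPM at 1 month, 45.5, 47.7 and 48.8 CPM at 12 months, and 59.1, 51.8 and 46.7 CPM at 24 months. The older levels did not overlap with the kids, and 1-month replicate 2 lay close to the other kids. The log2 fold changes were 1.17 ± 0.22 (adjusted p = 0.0184) at 12 months and 1.37 ± 0.33 (adjusted p = 0.0260) at 24 months.

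NDUFV2, an iron-sulfur subunit of the NADH-oxidising end, was at 79.3, 35.4 and 61.7 CPM at 1 month and 122, 145 and 137 CPM at 12 months (1.27 ± 0.33, adjusted p = 0.0423). At 24 months its 156, 113 and 74.2 CPM reached down into the kids, and it was not called (1.07 ± 0.44, adjusted p = 0.125). NDUFA5, an accessory subunit of the peripheral arm, was at 12.1, 7.19 and 12.4 CPM, then 20.6, 25.9 and 23.5 CPM (1.21 ± 0.30, adjusted p = 0.0360), then 16.2, 11.1 and 9.03 CPM at 24 months. Both were at their lowest 1-month level in replicate 2.

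NDUFV1, the subunit that binds NADH and flavin next to NDUFV2, was called at 24 months only. Its levels were 40.9, 51.7 and 28.8 CPM at 1 month, 60.2, 58.2 and 75.4 CPM at 12 months and 65.6, 117 and 146 CPM at 24 months. The log2 fold change was 0.72 ± 0.31 (adjusted p = 0.139) at 12 months and 1.55 ± 0.45 (adjusted p = 0.0489) at 24 months, and both older ages lay above the kids. The other complex I calls at 12 months were NDUFA12 and NDUFS5, accessory subunits that were named after their values were seen, to complete the count.

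Complex II, succinate dehydrogenase, had 0 of 4 genes called by edgeR in the comparisons with the kids. At an unadjusted p under 0.05, 1 was higher at 12 months and 3 at 24 months, against 2607 of 14897 and 2418 of 14966 genes. DESeq2 called 1 at each age, where 10.1% and 8.94% of all genes were called higher. SDHA, the flavoprotein, was at 85.8, 111 and 80.1 CPM at 1 month, 127, 134 and 156 CPM at 12 months and 145, 247 and 255 CPM at 24 months, with every older library above the kids. Its log2 fold change at 24 months, 1.34 ± 0.42, had an adjusted p of 0.0602. SDHD, a membrane anchor that carries heme, was at 54.5, 19.4 and 47.2 CPM, then 88.3, 109 and 105 CPM (1.39 ± 0.39, adjusted p = 0.0517), then 109, 68.1 and 64.0 CPM.

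SDHA and SDHD thus ranked the libraries in opposite ways within an age: 1-month replicate 2 was the highest for SDHA and the lowest for SDHD, and 24-month replicate 1 was the lowest for SDHA and the highest for SDHD. SDHB, the iron-sulfur subunit, was at 53.0, 80.4 and 39.8 CPM, 83.9, 88.8 and 91.0 CPM, and 86.7, 135 and 96.9 CPM. SDHC, the other anchor, was at 53.3, 92.7 and 52.0 CPM, 65.7, 69.7 and 87.9 CPM, and 71.8, 116 and 107 CPM. Without 1-month replicate 2 all 4 were called higher at 12 months, and SDHA and SDHB at 24 months, where 21.1% and 13.8% of all genes were.

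In complex III, 1 of 8 tested nuclear genes was called at each older age, against 6.52% and 7.08% of all genes called higher. Both times it was UQCR11, a small accessory subunit. It stood at 13, 17.5 and 14.4 CPM at 1 month, 31.0, 27.6 and 34.8 CPM at 12 months, and 28.7, 58.7 and 59.8 CPM at 24 months. No older library overlapped the kids, and the log2 fold changes were 1.11 ± 0.27 (adjusted p = 0.0356) and 1.83 ± 0.43 (adjusted p = 0.0246). UQCRC1, a core protein with the most counts of the nuclear genes here, was at 57.6, 117 and 57.4 CPM, 109, 98.7 and 130 CPM, and 93.7, 214 and 219 CPM, and was called in neither comparison. UQCRB, which lies near the quinone site, was at 24.9, 8.46 and 19.9 CPM, 35.6, 38.5 and 42.9 CPM, and 27.9, 21.4 and 10.2 CPM. CYTB, the mtDNA subunit of the same complex, followed the order of UQCRB at 24 months, with 4714, 3108 and 2621 CPM.

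In complex IV, 2 of 18 tested nuclear genes were called higher at 12 months and 0 at 24 months, against 6.52% and 7.08% of all genes. At 24 months 7 were higher at an unadjusted p under 0.05, against 2418 of 14966 genes, and DESeq2 called 0. NDUFA4, first described as a complex I subunit and later placed in complex IV, was at 97.4, 66.5 and 85.4 CPM at 1 month, 196, 189 and 209 CPM at 12 months and 150, 186 and 132 CPM at 24 months. Its log2 fold change was 1.32 ± 0.26 (adjusted p = 0.0194) at 12 months and 1.03 ± 0.37 (adjusted p = 0.0878) at 24 months, with no overlap with the kids at either age. COX6C, a small membrane subunit, was called through its copy LOC108637473, at 67.6, 24.5 and 51.5 CPM, then 117, 131 and 123 CPM (1.44 ± 0.38, adjusted p = 0.0427), then 127, 103 and 85.2 CPM. A second locus described as COX6C, LOC102173770, held 0 counts in all libraries, so the split of reads between near-identical copies is uncertain for this gene, as it is for COX7A2, COX7C, UQCR10, ATP5E and ATP5L.

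COX4I1, the largest nuclear subunit of complex IV and its most counted gene, was at 125, 290 and 127 CPM at 1 month, 236, 253 and 279 CPM at 12 months, and 241, 508 and 508 CPM at 24 months. The 1-month replicate 2 exceeded every 12-month library, and the gene was not called at 12 months (0.54 ± 0.43, adjusted p = 0.371) or at 24 months (1.32 ± 0.55, adjusted p = 0.130). Without that library it was called at both ages, with 1.03 ± 0.13 (adjusted p = 0.00266) and 1.84 ± 0.42 (adjusted p = 0.0131).

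In complex V, 1 of 16 tested nuclear genes was called at 12 months, a share near the background of 6.52%, and 2 at 24 months, against 7.08% of all genes. ATP5A1, the alpha subunit of the catalytic head, was at 238, 223 and 195 CPM at 1 month, 417, 406 and 475 CPM at 12 months, and 454, 542 and 448 CPM at 24 months. The ages did not overlap with the kids, with 1.04 ± 0.27 (adjusted p = 0.0424) at 12 months and 1.25 ± 0.39 (adjusted p = 0.0604) at 24 months. ATP5B, the beta subunit that pairs with it and the most counted nuclear gene of the complex, was at 296, 567 and 252 CPM, 411, 411 and 603 CPM, and 407, 730 and 776 CPM. It was not called at 12 months (0.39 ± 0.43, adjusted p = 0.520) or at 24 months (0.89 ± 0.53, adjusted p = 0.268).

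ATP5D, the delta subunit of the central stalk, was called at 24 months, at 49.5, 80.9 and 43.7 CPM in kids and 129, 220 and 256 CPM in adults (1.91 ± 0.47, adjusted p = 0.0285). At 12 months it stood at 103, 108 and 131 CPM (1.02 ± 0.34, adjusted p = 0.0768), also clear of the kids. ATP5S, an ATP synthase-associated protein outside the enzyme itself, was called at 12 months, from 5.14, 1.76 and 4.21 CPM to 10.7, 15.8 and 10.6 CPM (1.81 ± 0.46, adjusted p = 0.0379), and it was chosen for naming after its value was seen.

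Between 24 and 12 months, 0 of 100 tested respiratory chain genes were called by edgeR in either direction, where the background was 0% of 14295 genes. At an unadjusted p under 0.05, 12 were higher and 2 lower, where 1183 and 375 of the 14295 genes were. DESeq2 called 0 respiratory chain genes and 25 of all genes. The 13 mtDNA genes all had fitted values below 0, from -0.72 for ND6 to -0.08 for COX3, with a median of -0.37 against 0.04 for all genes, and in each of the 13 the ages overlapped. Without 12-month replicate 2, which had the highest mtDNA sum, the median was -0.10 and 2 were above 0. The 81 tested nuclear subunits had a median of 0.20, with 49 above 0. Groups did not overlap for 2 higher and 6 lower nuclear subunits, where the background was 7.93% and 7.57%.

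The nuclear values between the older ages ran in both directions within every complex. In complex I they reached from -0.91 for NDUFA5 to 1.00 for NDUFB7, which was at 27.6, 21.1 and 25.9 CPM at 12 months and 29.8, 64.2 and 49.5 CPM at 24 months. UQCRB had the lowest value of complex III, -0.93, and the values for SDHA, 0.67, COX4I1, 0.75, and ATP5G2, 0.88, were the largest of complexes II, IV and V. Each had an adjusted p of 0.429. Leaving out 24-month replicate 1 changed this, with 31 respiratory chain genes called higher and 8 lower, 2 of the 8 from mtDNA, against 17.6% and 14% of all genes.

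The opposite rankings seen for SDHA and SDHD occurred widely among the nuclear subunits, though not in each of them. Of the 82 tested, 44 were higher in 1-month replicate 2 than in both other 1-month libraries, 32 were lower than in both and 6 lay between, where 41.5% of all genes were higher and 48.3% lower. In every complex both kinds occurred: 18 above and 15 below in complex I, 3 and 1 in complex II, 5 and 3 in complex III, 11 and 6 in complex IV, and 7 and 7 in complex V. At 24 months, 50 of the 82 were higher in replicates 2 and 3 than in replicate 1, and 20 were lower, where 41.1% of all genes were higher and 40.8% lower.

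The sorting was alike at the 2 ages for most nuclear subunits, with exceptions. Of the 44 genes above in 1-month replicate 2, 43 were also higher in both 24-month replicates 2 and 3 than in replicate 1. That is 97.7% of the first list and 86% of the second, where over all genes the shares were 67.7% and 66.1%. Of the 32 below, 19 were also lower, 59.4% of the first list and 95% of the second. Over all genes these shares were 63% and 75.4%, so the 59.4% lay below the share of all genes. Another 4 of the 32 went the other way, being higher at 24 months, and 0 of the 44 were lower. Over all genes 1477 of 6849 and 923 of 5801 went the other way. Of the 13 mtDNA genes, 1 was above and 4 were below at both ages. Another 3 went from below to above, and 1 from above to below. Spearman's rho between the within-age log2 ratios was 0.83 over the 82 nuclear subunits, 0.53 over the 13 mtDNA genes and 0.48 over 13977 genes of all kinds, as a description across genes that share their libraries. These ratios compare goats of one age only, so the 2 axes share no library. Which libraries were set against each other within an age was not fixed by the design.

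**Figure D4:**
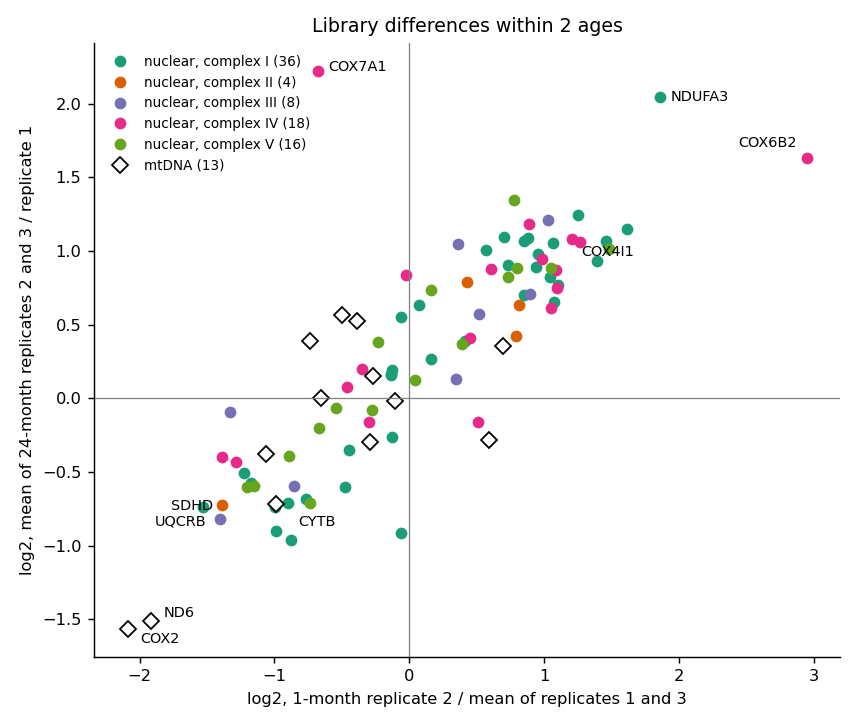
For each tested gene, the log2 ratio of 1-month replicate 2 to the mean of replicates 1 and 3 (horizontal) against the log2 ratio of the mean of 24-month replicates 2 and 3 to replicate 1 (vertical), with nuclear subunits coloured by complex and mtDNA genes as open diamonds. COX4I1 lies high in these libraries and SDHD, UQCRB, COX2 and ND6 lie low, and every complex has genes on both sides.

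Thymocyte markers stood at 17697 CPM in 1-month replicate 2 but at 37.9 and 42.5 CPM in 24-month replicates 2 and 3 and 39.9 CPM in replicate 1, so they did not separate the 24-month libraries as they did the kids. Salivary duct markers summed to 9710 and 11191 CPM in 24-month replicates 2 and 3 against 5351 CPM in replicate 1, but to 199 CPM in 1-month replicate 2 against 1868 and 1155 CPM. Other lists did lie on the same side at both ages. Acinar markers were lower in 1-month replicate 2, and at 24 months summed to 152773 and 151275 CPM in replicates 2 and 3 against 193941 CPM in replicate 1. Skeletal muscle markers were lower too, at 115 CPM against 322 and 166 CPM at 1 month and at 47.2 and 71.4 CPM against 88.6 CPM at 24 months. Thymic epithelium markers were higher, at 721 CPM against 184 and 78.8 CPM and at 12.4 and 12.3 CPM against 7.86 CPM, as were cell cycle genes, at 3765 CPM against 1376 and 1178 CPM and at 73.6 and 90.7 CPM against 65.9 CPM. Mitochondrial ribosomal protein genes were also higher, at 1845 CPM against 1232 and 1130 CPM and at 1939 and 1936 CPM against 1503 CPM. Tricarboxylic acid cycle genes were at 1725 CPM against 1140 and 1062 CPM and at 2657 and 3164 CPM against 1772 CPM. Carrier, porin and import genes lay on that side too, whereas assembly factors, mtDNA transcription genes and biogenesis regulators did not do so at both ages. At 24 months, 4 of the 6 thymic epithelium markers and 7 to 10 of the 22 skeletal muscle markers held 3 counts or fewer in each library. The part of any list named here in the sorting was not tested.

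The sorting bears on which genes were called. At 12 months, 7 of the 9 called nuclear subunits were from the 32 that were low in 1-month replicate 2, 1 from the 44 that were high and 1 from the 6 between. At 24 months, 4 of the 5 were from the 44 and 1 from the 32. Medians at 12 months were 0.51 for the 44 and 0.99 for the 32, and they were 0.80 and 0.68 without that library. At 24 months they were 0.92 and 0.71, and 1.34 and 0.55 without it. These groups were formed from libraries of the same comparisons, so the values are a description.

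Several subunits have isoforms used in particular tissues. COX4I1 made up 98.5 to 99.8% of the COX4I counts in every library. COX4I2, the alternative form, stood at 1.07, 0.458 and 1.33 CPM at 1 month. It was at 2.56, 2.64 and 1.57 CPM at 12 months, and at 3.72, 1.58 and 4.08 CPM at 24 months. Every older library lay above the kids, but edgeR called it at neither age (1.30 ± 0.54, adjusted p = 0.130, and 1.83 ± 0.67, adjusted p = 0.0932). The muscle forms COX6A2 and COX8B reached at most 0.480 and 0.660 CPM, and COX7B2, a testis form, had 0 counts in all 9 libraries, which allows up to 0.120 to 0.260 CPM (3 counts of each library's total, counting error only). COX6A1, COX7B and COX8A therefore held more than 99% of their families, with skeletal muscle markers at 47.2 to 467 CPM in sum.

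COX7A1, the form of contractile tissue, was at 4.18, 3.56 and 7.21 CPM at 1 month, 8.99, 8.96 and 9.35 CPM at 12 months, and 3.78, 28.0 and 7.28 CPM at 24 months. The high value came from 24-month replicate 2 alone, where skeletal muscle markers were at 47.2 CPM, the lowest of all libraries, and the log2 fold change against 1 month, 1.54 ± 0.76, was not called (adjusted p = 0.187). Between 24 and 12 months it was 0.58 with that library and -0.70 without it. COX7A2 was listed at 2 loci of 17 to 49.5 CPM and 17.3 to 34.9 CPM, and COX7A2L, which takes part in joining complexes III and IV, at 25.9 to 47.5 CPM.

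COX6B2, the testis form of COX6B, was the subunit with the largest negative values. It was at 0.851, 6.27 and 0.776 CPM at 1 month, 0.206, 0.165 and 0.568 CPM at 12 months, and 0.232, 0.509 and 0.929 CPM at 24 months. All 12-month libraries were below the kids and the 24-month libraries overlapped them, the high value came from the thymocyte-rich replicate 2, and the log2 fold change at 12 months, -2.98 ± 1.08, was not called by edgeR (adjusted p = 0.0935), whereas DESeq2 called it (-3.09, adjusted p = 0.0204). COX6B1, the common form, was at 17.1, 45.4 and 20.6 CPM, 30.8, 35.6 and 37.3 CPM, and 23.9, 58.2 and 41.4 CPM. NDUFA4L2, a paralogue of NDUFA4 known from hypoxia, stood at 2.68 to 6.94 CPM.

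The c subunit that forms the rotor ring of ATP synthase comes from 3 genes. ATP5G1 was called at 24 months, at 8.21, 14.1 and 8.23 CPM in kids, 17.2, 15.0 and 29.5 CPM at 12 months and 15.9, 45.9 and 35.0 CPM at 24 months (1.78 ± 0.52, adjusted p = 0.0491). ATP5G2 was at 64.6, 157 and 47.7 CPM, 129, 124 and 102 CPM, and 126, 206 and 301 CPM, and was not called (1.33 ± 0.59, adjusted p = 0.149). ATP5G3 was at 28.1, 35.3 and 25.6 CPM, 38.9, 36.7 and 51.6 CPM, and 41.6, 52.0 and 55.6 CPM, with a log2 fold change at 24 months of 0.86 ± 0.35 (adjusted p = 0.125). ATP5G1 took 6.83 to 16.1% of the counts of the family, and its share overlapped among the ages.

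**Figure D5:**
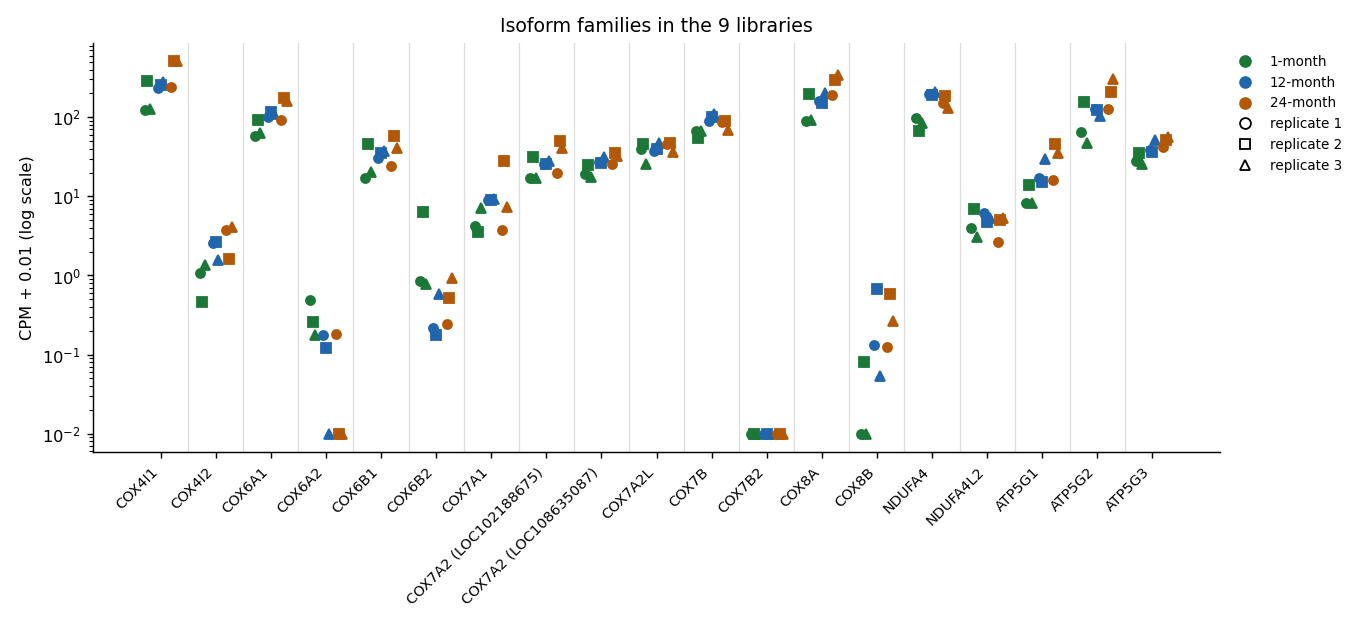
CPM, with 0.01 added and on a log axis, of the subunits that have isoforms, in each of the 9 libraries coloured by age and shaped by replicate. COX4I1, COX6A1, COX7B and COX8A lie far above their alternative forms, COX6B2 is highest in 1-month replicate 2 and COX7A1 in 24-month replicate 2.

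Other genes of the mitochondrion were read from listed pathways, with members of the symbol rule left out. Their counts are to be read against the 6.52% of all genes called higher at 12 months and the 7.08% at 24 months, and the counts of assembly factors, carriers at 24 months, tricarboxylic acid cycle, mtDNA transcription and mitochondrial ribosomal protein genes lay near or below those shares. Of 45 tested assembly factors, 3 were called higher at 12 months, SURF1, COX11 and COX20, which act in building complex IV, and 2 at 24 months, SURF1 and COA3. SURF1 had log2 fold changes of 1.80 ± 0.34 (adjusted p = 0.0182) and 2.02 ± 0.48 (adjusted p = 0.0257). The medians of the list were 0.55 and 0.56, and 0 were lower in either comparison by edgeR or DESeq2, also with no gene at an unadjusted p under 0.05. Of 7 further subunits and electron carriers, ETFDH, which feeds electrons from fatty acid oxidation into the quinone pool, was called at both ages and ETFB at 24 months, with medians of 0.68 and 1.12.

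Of 14 genes of the tricarboxylic acid cycle, SUCLG2 was called higher at 12 months, and at 24 months edgeR called 0, with 6 higher at an unadjusted p under 0.05 and 2 called by DESeq2. The medians were 0.72 and 0.85. Of 18 carrier, porin and import genes, 3 were called at 12 months, SLC25A4, VDAC3 and TOMM20, and 1 at 24 months, the ADP/ATP carrier SLC25A4 (2.22 ± 0.47, adjusted p = 0.0236, and 2.18 ± 0.49, adjusted p = 0.0215). Among 15 tested regulators of mitochondrial biogenesis, ESRRA, a nuclear receptor that acts on these genes, was called at both ages (1.58 ± 0.27, adjusted p = 0.0139, and 1.97 ± 0.36, adjusted p = 0.0117), as was the deacetylase SIRT3. PPARA was called at 24 months only, and GABPB1, a subunit of the factor also named NRF2, was called lower at 12 months (-1.10 ± 0.25, adjusted p = 0.0279).

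The genes that copy and read mtDNA and those of the mitochondrial ribosome had smaller medians. Of 27 tested genes for transcription, replication and RNA handling, GRSF1, which binds mtDNA transcripts, was called higher at 12 months, and 0 were called at 24 months by edgeR or DESeq2, with 3 higher and 1 lower at an unadjusted p under 0.05. The medians were 0.18 and 0.05. Of 77 mitochondrial ribosomal protein genes, MRPS21 was called at 12 months and 0 at 24 months, where 5 were higher at an unadjusted p under 0.05 and DESeq2 called 1, with medians of 0.20 and 0.40. The difference between these lists and the respiratory chain genes was not tested. With plain library totals, 1 assembly factor and 1 biogenesis regulator were called higher at 12 months and 1 biogenesis regulator at 24 months. At each age 3 biogenesis regulators, 2 transcription genes and 1 mitochondrial ribosomal protein gene were called lower, with 1 carrier gene at 24 months. In those fits 1.43% of all genes were called higher and 22.1% lower at 12 months, and 1.75% and 22.0% at 24 months.

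The 7 respiratory chain genes tested in no comparison were the muscle and testis forms COX6A2, COX8B and COX7B2 and the extra loci of UQCR10, COX6C, COX7C and ATP5E, which held between 0 and 35.3 counts over all 9 libraries together. COX6B2 was tested only against the kids. Of the 6 other proteins matched by symbol, ATP5S was the only one called, and their median log2 fold changes were 0.16 and 0.24.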

How the data were processed

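The authors deposited expected counts per transcript in 9 libraries, 3 goats per age, estimated with RSEM after rRNA reads were removed with Bowtie2 (2.2.8), reads were aligned to the goat genome with TopHat2 (2.1.1) and new transcripts were assembled with Cufflinks. The genome build is not given in the sources used here. RSEM shares reads of near-identical copies among them.

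The expected counts of 52739 transcripts were summed to 21683 genes through RefSeq gene symbols (assembly ARS1.2, 99.9% of known identifiers matched) and rounded to whole numbers. Genes passing filterByExpr were scaled by TMM and tested between 2 ages at a time with edgeR 4.0.16 (R 4.3.3), taking the quasi-likelihood test with Benjamini-Hochberg adjustment over all genes tested. DESeq2 1.42.0 was an alternative. CPM use TMM factors over all 9 libraries, and ± is an SD or the SE of a log2 fold change. The test was tested on simulated data. Genes named are the mtDNA genes, SDHA to SDHD, isoform families, the largest called changes per complex (or the largest one, if none was called) and the most counted nuclear gene per complex. The symbol rule, lists and tests were chosen with earlier results of these data known. Replicates are goats, so p-values measure spread among 3 animals per age. A gene that this rule names is not reported here.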

Additional observations from a re-analysis of the deposited data

How the results depend on the processing

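Counts of calls depended on the processing, and with plain library totals many directions did too. At 24 against 1 month, 12 of the 13 mtDNA genes were above 0, but 5 with plain library totals. For the 82 nuclear subunits these numbers were 80 and 55. At 12 against 1 month, 11 respiratory chain genes and 2730 of all genes were called. With upper-quartile scaling, 5 respiratory chain genes were called higher, where 4.63% of all genes were. With known transcripts only there were 5, against 3.77% of all genes, and with plain library totals 0, against 1.43%. DESeq2 called 27 higher and 1 lower, and 4783 of all genes. Leaving out a library gave 0 to 73 respiratory chain genes called higher, and 0 to 6597 of all genes called. At 24 against 1 month, 5 respiratory chain genes and 2641 of all genes were called. Those called higher were 3 with DESeq2 size factors, where 6.33% of all genes were called higher. There were 3 with no filter on low counts (5.18% of all genes) and 3 with known transcripts only (4.27%). There were 8 with DESeq2 (4091 of all genes called) and 15 with all 9 libraries in a single fit (4407 called). Plain totals gave 0, against 1.75% of all genes called higher. Without 1-month replicate 2 and 24-month replicate 3 there were 9, against 7.83%. Leaving out a library gave 0 to 32 respiratory chain genes called higher, and 312 to 4312 of all genes called. Between 24 and 12 months, where none was called, all genes gave 25 calls with DESeq2, 2 with no filter and 1 with plain totals, and leaving out a library gave 0 to 4617, with 0 to 31 respiratory chain genes higher and 0 to 8 lower. Plain totals and the pair of libraries left out together were chosen after seeing the data. The cause of these shifts was not tested.

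On the log2 scale, plain totals brought the ratio of the mtDNA sums to 0.815 at 12 months and 0.295 at 24 months against 1 month, and that of the nuclear sums to 0.247 and 0.316 (0.274 and 0.324 with totals that leave out mtDNA).

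Plain totals also turned the sign of single genes. At 12 against 1 month these were ND2 at -0.132, SDHC at -0.202, COX6B1 at -0.0406, COX7A2 (LOC102188675) at -0.107, COX7A2L at -0.237, NDUFA4L2 at -0.179, NDUFB7 at -0.18 and ATP5B at -0.00352. At 24 against 1 month they were ND1 at -0.0704, ND3 at -0.602, ND4 at -0.112, ND4L at -0.495, ND5 at -0.087, ATP6 at -0.376, ATP8 at -0.447, COX7A2L at -0.352, COX7B at -0.226, NDUFA5 at -0.438 and UQCRB at -0.5. Between 24 and 12 months they were COX7A2 (LOC108635087) at -0.0361, COX7A2L at -0.114, NDUFC2 at -0.0174 and ATP5A1 at -0.0173. With known transcripts only, ND3 stood at -0.0221 (24 against 1 month) and SDHB at -0.236 (24 against 12 months). Without both libraries named above, ND4L was at -0.0117 and NDUFA4L2 at 0.152 (24 against 1 month).

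Leaving out a library turned the sign of COX7A2L (-0.0429 to 0.352), NDUFA4L2 (-0.0329 to 0.604) and NDUFB7 (-0.0737 to 0.8) at 12 against 1 month, of ND2 (-0.302 to 0.155), ND3 (-0.109 to 0.573), NDUFA4L2 (-0.262 to 0.398) and UQCRB (-0.0692 to 0.602) at 24 against 1 month, and of ND4 (-0.619 to 0.0141), COX3 (-0.249 to 0.153), COX6B1 (-0.0645 to 0.577), COX7A1 (-0.696 to 1.02) and COX7A2L (-0.0116 to 0.173) between 24 and 12 months.

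Replicate numbers did not pair the goats: correlations of same-numbered deviations were -0.0995, -0.0918 and -0.092 at 12 against 1 month, 0.337, 0.142 and -0.176 at 24 against 1 month, and -0.0407, -0.0834 and -0.0172 between 24 and 12 months, and not every library correlated best with its own number. With a replicate block, 0 respiratory chain genes and 929 of all genes were called at 12 against 1 month, 4 respiratory chain genes at 24 against 1 month, and 0 respiratory chain genes and 7 of all genes between 24 and 12 months, and NDUFA4L2 was at 0.0173 at 24 against 1 month.

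Depth limits the rare isoforms: 3 counts correspond to 0.120 to 0.260 CPM, and COX6A2, COX8B and COX7B2 lay at or under 3 counts in at least 6 of 9 libraries.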
